A study of Caenorhabditis elegans with 2 samples.

Results

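The cuticle collagen genes of Caenorhabditis elegans were followed through a chromatin immunoprecipitation and sequencing (ChIP-seq) experiment on CEH-14, a LIM homeobox transcription factor that several classes of neurons need for their identity. The genes were chosen by name: protein-coding genes whose symbol starts with col-, together with 16 dpy, rol, sqt and bli genes known to encode cuticle collagens (dpy-2, dpy-3, dpy-5, dpy-7, dpy-8, dpy-9, dpy-10, dpy-13, dpy-17, rol-6, rol-8, sqt-1, sqt-2, sqt-3, bli-1 and bli-2). By this rule 172 of 19985 protein-coding genes were members, 156 of them with a col symbol. They are spread over all chromosomes, with 43 on IV, 32 each on II and V, 30 on X, 22 on I and 13 on III.

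There is 1 group of samples, late embryos of strain OP315 (hermaphrodite), taken whole 5 hours after bleaching had been used to synchronize the eggs, and it holds 2 biological replicates. The animals stably express CEH-14 fused at its C-terminus to GFP-FLAG, written CEH-14-eGFP in another label, and sonicated chromatin was precipitated with an anti-GFP antibody. The labels do not say which promoter drives the transgene, how many copies are present or whether the native gene remains. Whole embryos were used, so the cell type behind an entry cannot be told, and no expression was measured that could be set against the stage. A possible control experiment is named in the labels, and its data were not analysed here. With 1 group and no control library there is no contrast and no test, and the account describes where the peaks of both replicates lay on the collagen genes.

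Cuticle collagens are short secreted proteins with blocks of the repeat Gly-X-Y, in which glycine opens each triplet and X and Y are often proline or hydroxyproline. The epidermis (hypodermis) makes them in large amounts ahead of each moult, hydroxylates and trims them, and crosslinks them into the cuticle, the collagenous coat of the animal. Mutations in single members change body shape: dpy animals are short and fat, rol animals roll, sqt animals are squat and bli animals have blistered cuticle. Glycine codons begin with GG and proline codons with CC, so the repeat is rich in G and C at the DNA level, in a genome that is otherwise rich in A and T.

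The authors deposited 4 lists in ce11 coordinates. A first list holds 1681 peaks that passed the irreproducible discovery rate (IDR), which keeps regions with similar ranks in both replicates. A relaxed list for both replicates pooled held 21766 entries, and the relaxed lists of replicate 1 and replicate 2 held 21217 and 19577. Relaxed lists hold background as well as peaks. The 1681 IDR peaks were the 1681 strongest entries of the pooled list, so ranks from 1682 downward are entries that IDR did not keep. Entries were ranked by the authors' signal value, and a gene had an entry when a summit, the position of highest signal, lay within 1000 bases of one of its annotated transcript starts. Read numbers are not in the lists, so the depth behind an entry is unknown, and the number of entries limits the precision.

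Few collagen genes had an IDR peak, while many had an entry directly below the IDR threshold. IDR peaks lay near the starts of 4 of 172 collagen genes (2.33%), against 6.82% of all protein-coding genes. Pooled entries ranked 1682 to 5000 were the strongest at 49 collagen genes (28.5%), against 9.0% of all genes. Within the 5000 strongest pooled entries were 53 collagen genes (30.8%), against 15.8% of all genes, and anywhere in the pooled list 112 (65.1%), against 42.1%. The median rank was 5220 over the 112 collagen genes and 7563.5 over the 8414 genes of the annotation with an entry. The members were picked by name and the comparison with all genes is a description.

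**Figure D1:**
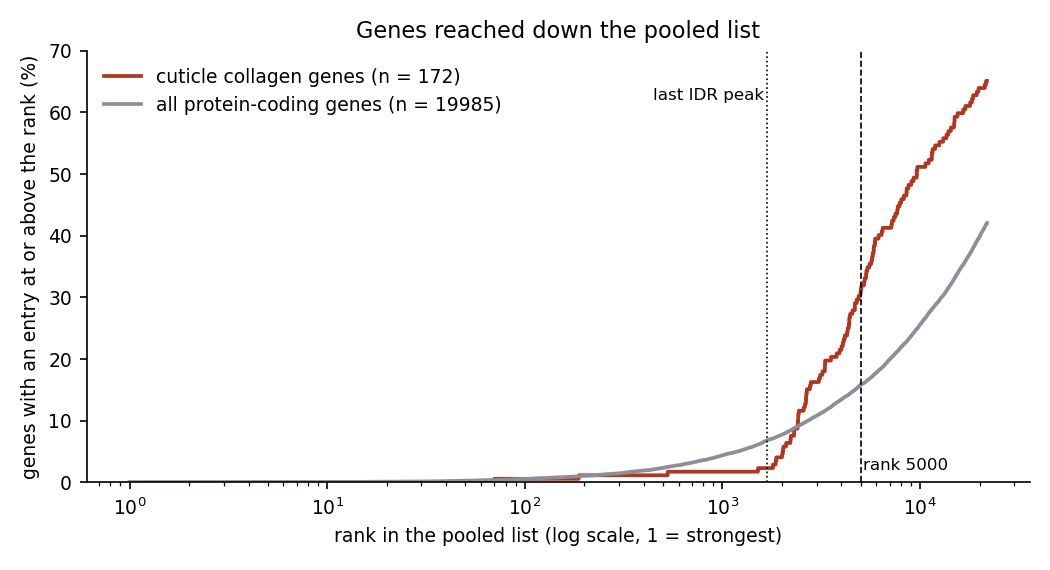
Share of genes (y axis, %) whose strongest pooled entry has the rank on the x axis (log scale, 1 is strongest) or a stronger one, for the 172 cuticle collagen genes (red) and all 19985 protein-coding genes (grey). The red line is below the grey line at the last IDR peak (dotted, 2.33% against 6.82%) and above it at rank 5000 (dashed, 30.8% against 15.8%).

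The replicates differed at the top of their lists. Among the 1681 strongest entries of replicate 1 were 12 collagen genes (6.98%), against 6.63% of all genes, and among those of replicate 2 were 6 (3.49%), against 6.59%, so the low share at IDR peaks was also seen in replicate 2 and not in replicate 1. Over the whole lists 106 collagen genes had an entry in replicate 1 (61.6%, against 41.6% of all genes) and 106 in replicate 2 (61.6%, against 39.8%). Counting the 5000 strongest entries of each replicate, 50 collagen genes were reached in replicate 1 (29.1%, against 15.3% of all genes), 40 in replicate 2 (23.3%, against 15.3%) and 23 in both (13.4%, against 10.4%). The 23 were 46.0% of the collagen genes reached in replicate 1 and 57.5% of those in replicate 2, against 67.9% and 67.9% for all genes. The lists are not independent of each other, since the pooled list is made from the same libraries.

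The summits lay inside the collagen genes and not in front of them. The strongest pooled summit of a collagen gene had a median position of 638 bases downstream of the start (quartiles 451 and 741), whereas over all protein-coding genes the median was -149.5, that is, upstream (quartiles -427 and 176). Downstream summits made up 102 of 112 in collagen genes (91.1%) and 33.4% over all genes. In 94 of 112 collagen genes (83.9%) the strongest summit fell in a coding exon of the gene itself, against 13.1% over all genes with an entry. Another 7 fell in the gene's own introns, 1 in an untranslated exon and 10 upstream (8.93%, against 59.6% over all genes).

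**Figure D2:**
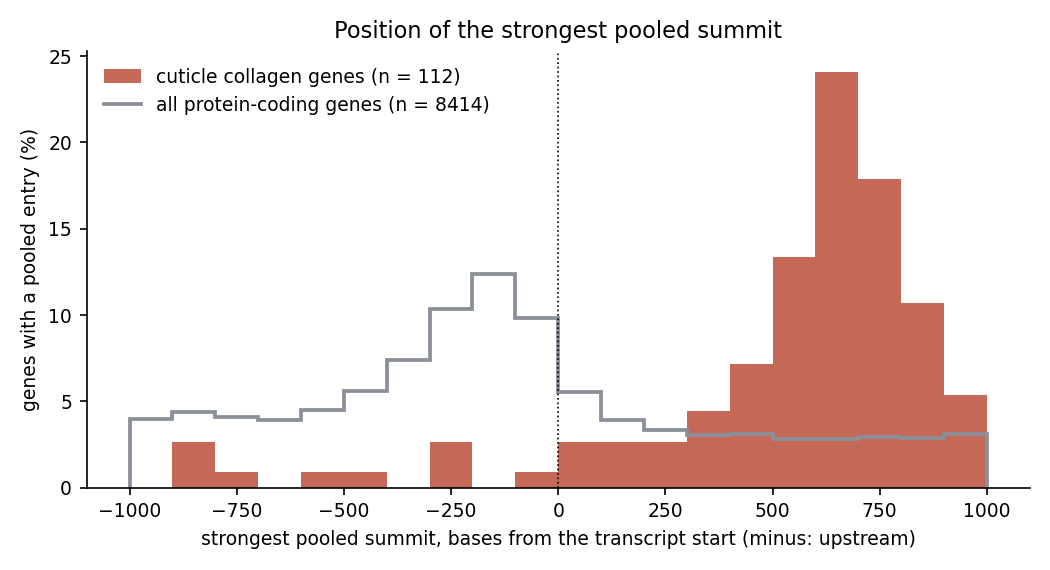
Position of the strongest pooled summit relative to the transcript start (x axis, bases, minus is upstream) as a share of the genes with a pooled entry (y axis, %, bins of 100 bases), for 112 cuticle collagen genes (red) and all 8414 protein-coding genes with an entry (grey). Most collagen summits lie between 500 and 1000 bases downstream, where the grey line is low, and the grey line peaks just upstream of the start.

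Accordingly, the counts changed with the window. With 500 bases in place of 1000, 48 collagen genes had a pooled entry (27.9%, against 30.5% of all genes) and 7 had one ranked 1682 to 5000 (4.07%, against 6.53%), so the excess over all genes was absent in the narrow window. With 2000 bases the counts were 134 (77.9%, against 56.7%) and 65 (37.8%, against 12.5%). Counted without any window, a pooled summit lay in the gene's own coding exons in 125 of 172 collagen genes (72.7%), against 16.2% of all genes. For the 5000 strongest entries this was 53 collagen genes (30.8%), against 2.03% of all genes, and collagen genes were 13.1% of the 406 genes with such a summit. By contrast, a pooled summit within 1000 bases upstream of a start was found for 25 collagen genes (14.5%), against 30.8% of all genes, and one among the 5000 strongest for 8 (4.65%), against 13.0%.

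Of the 4 collagen genes with an IDR peak, only col-107 carried it in its coding sequence. The windows of 101 bases around the summits of the other 3 are printed first, on the strand of the collagen gene and from the RefSeq copy of the WBcel235 (ce11) assembly. Capitals mark bases of an annotated tRNA gene, and col-71 has none.
col-85: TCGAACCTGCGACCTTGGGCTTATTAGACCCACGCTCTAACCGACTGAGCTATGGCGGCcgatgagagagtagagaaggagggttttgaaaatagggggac
col-71: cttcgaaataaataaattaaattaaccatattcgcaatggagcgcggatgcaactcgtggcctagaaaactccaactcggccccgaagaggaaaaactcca
col-185: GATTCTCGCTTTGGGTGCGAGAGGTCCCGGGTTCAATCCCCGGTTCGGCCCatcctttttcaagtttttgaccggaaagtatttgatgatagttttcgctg
The col-85 window is chrII:12494699-12494799, the col-71 window chrII:3502788-3502888 and the col-185 window chrX:13511920-13512020, all read on the minus strand.

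col-85 (chrII:12493703-12495095) had the strongest entry of any collagen gene. It ranked 70 in the pooled list with a signal value of 260.5, 88 in replicate 1 (113.0) and 60 in replicate 2 (146.7). The summit lay 346 bases downstream of the start, in an intron of col-85 and within a tRNA gene on the opposite strand (chrII:12494741-12494814). A separate pooled summit in the coding exons of col-85 ranked only 9002.

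col-71 (chrII:3500077-3502570) came next, at rank 188 with a signal value of 186.7, and at ranks 143 and 285 in replicates 1 and 2 (96.2 and 86.3). Its summit was 268 bases upstream of the start in the pooled list and in both replicates, and also upstream of the divergent gene Y49F6B.2, with no small RNA gene beside it. The window holds a run rich in A and T and a GC content of 43.6%. In col-71, too, a pooled summit in the coding exons was weak, at rank 9385.

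col-185 (chrX:13510035-13511097) ranked 529 with a signal value of 123.7, and 795 and 453 in replicates 1 and 2 (49.9 and 73.7). The summit lay 873 bases upstream, at the end of a tRNA gene on the same strand (chrX:13511970-13512041). Leaving out entries within 200 bases of a tRNA, snoRNA or snRNA gene removed col-85 and col-185 and left 2 collagen genes with an IDR peak, against 6.33% of all genes.

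col-107 (chrIV:1548721-1549714) was the last, at rank 1513 with a signal value of 77.2, and ranks 1494 and 1894 in the replicates (37.9 and 39.4). Its summit lay 616 bases downstream of the start, in the Gly-X-Y repeat, and the gene itself lies inside C34H4.5, annotated on the other strand. Of all 28 IDR summits in coding exons this was the 1 in a collagen gene. The windows of col-107 and of the 8 members with the strongest entries below the IDR threshold follow, read on the strand of each gene. Capitals mark codons for glycine (GGN) in the reading frame, and GGN at the edge of a window can be incomplete.
col-107: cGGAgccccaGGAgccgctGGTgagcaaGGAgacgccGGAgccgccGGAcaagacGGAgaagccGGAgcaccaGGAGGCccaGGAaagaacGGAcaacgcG
col-2: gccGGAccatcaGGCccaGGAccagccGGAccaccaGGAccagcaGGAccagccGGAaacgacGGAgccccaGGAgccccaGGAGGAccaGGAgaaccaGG
col-130: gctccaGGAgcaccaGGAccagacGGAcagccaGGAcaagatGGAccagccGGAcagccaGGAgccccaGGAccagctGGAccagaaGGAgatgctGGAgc
col-122: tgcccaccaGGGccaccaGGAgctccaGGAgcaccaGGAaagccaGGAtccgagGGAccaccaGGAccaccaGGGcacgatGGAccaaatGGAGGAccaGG
col-95: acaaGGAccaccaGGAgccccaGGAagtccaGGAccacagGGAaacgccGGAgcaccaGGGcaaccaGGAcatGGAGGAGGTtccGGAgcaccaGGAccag
col-14: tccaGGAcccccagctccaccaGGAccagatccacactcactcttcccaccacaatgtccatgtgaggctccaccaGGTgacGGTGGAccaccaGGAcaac
col-108: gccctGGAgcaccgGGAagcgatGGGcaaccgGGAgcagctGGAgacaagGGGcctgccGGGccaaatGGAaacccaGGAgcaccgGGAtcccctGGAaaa
col-91: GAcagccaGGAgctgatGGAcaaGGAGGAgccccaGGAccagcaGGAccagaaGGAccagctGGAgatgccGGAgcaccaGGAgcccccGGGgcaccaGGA
col-101: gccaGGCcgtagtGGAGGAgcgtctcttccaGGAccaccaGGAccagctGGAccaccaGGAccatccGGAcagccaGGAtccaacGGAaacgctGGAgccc
The windows are chrIV:1549287-1549387 (plus strand), chrIV:10084762-10084862 (minus), chrIV:12427892-12427992 (minus), chrIV:9563938-9564038 (plus), chrIII:11704532-11704632 (plus), chrIV:7754117-7754217 (plus), chrIV:1769276-1769376 (plus), chrIII:8262739-8262839 (minus) and chrIV:325785-325885 (minus). In all except col-14 a glycine codon opens most triplets through the window, with proline codons (CCN) and alanine codons (GCN) between them. The col-14 summit fell in an interruption of the repeat, 26 bases from the nearest tract.

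Just outside the threshold stood col-2, col-130 and col-122. col-2 ranked 1801 with a signal value of 70.5, and 1278 and 1311 in replicates 1 and 2 (40.7 and 47.1). Its entry in replicate 2 was a different one, at position -469 upstream of the start, which was also present in the pooled list at rank 1927 between col-2 and ndc-80, a kinetochore gene. col-130 ranked 1858 (69.5) and differed between the replicates, at 585 in replicate 1 with a signal value of 57.0 and with no entry in replicate 2. col-122 ranked 1870 (69.2), and 1775 and 2593 in the replicates (34.9 and 33.7). Both col-130 and col-122 lie inside larger genes, ugt-65 and lron-14.

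Further down, col-95 ranked 2002, col-14 ranked 2021, col-108 ranked 2031, col-91 ranked 2097 and col-101 ranked 2204. Then came col-164 at 2219, col-9 and col-44 at 2302 with a shared summit, col-165 at 2398, col-37 at 2403, col-148 at 2415 and col-34 at 2417. Of these 15 members, the strongest below the IDR peaks, 14 had the summit in their own coding exons and 13 within the repeat, and 14 had an entry in both replicates. The exception in position was col-44, whose summit lay 584 bases upstream because it is the coding summit of its neighbour col-9. GC content within 50 bases of these 15 summits ran between 51.5% in col-148 and 70.3% in col-2.

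**Figure D3:**
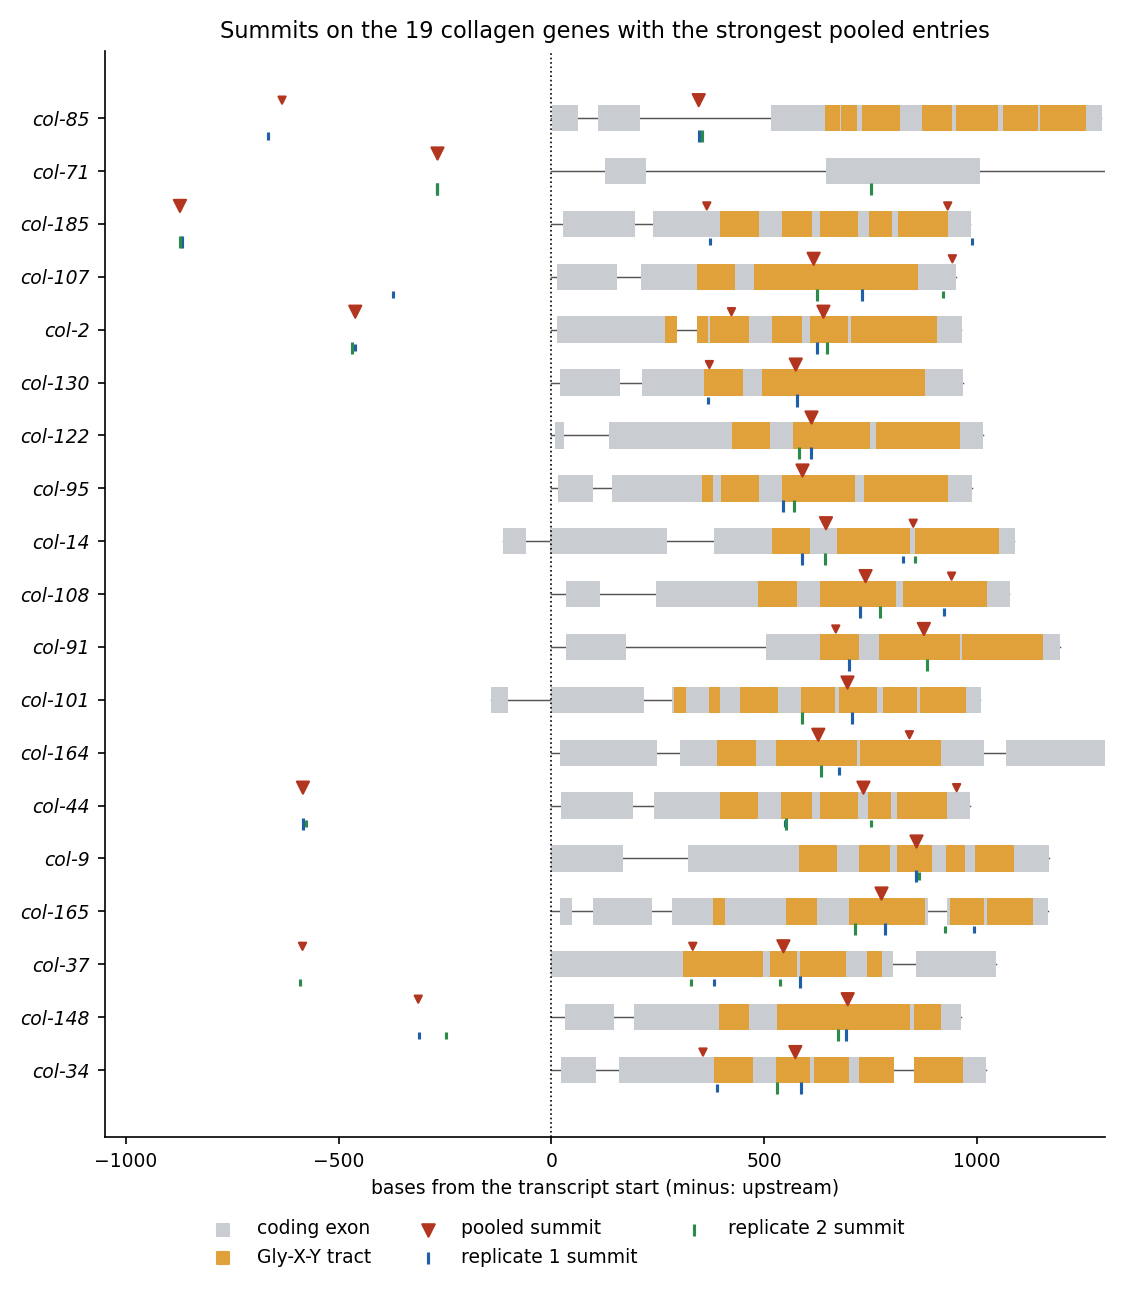
Coding exons (grey boxes), Gly-X-Y tracts (orange) and summits of the 19 collagen genes with the strongest pooled entries, drawn by rank with the strongest at the top; the x axis gives bases from the transcript start, minus is upstream, and col-71 and col-164 run past the right edge. Red triangles are pooled summits, blue and green ticks summits of replicates 1 and 2, and large marks have a rank of 5000 or better. Below the first 3 genes most large marks lie on orange boxes, 500 to 900 bases from the start.

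The repeat itself held most of the coding summits. A tract was taken as 3 or more Gly-X-Y triplets in a row in the longest coding sequence of a gene. By this measure 171 of 172 members had a tract, the exception being col-17, and tracts took a median of 51.2% of the coding length. Each sequence was read from its first base and annotated reading frames were not used, so col-17 is not shown to lack the repeat. Of the 94 strongest summits in a gene's own coding exons, 76 (80.9%) lay in a tract and 91 (96.8%) within 50 bases of one, a zone that takes a median of 69.5% of the coding bases. Tracts had a median GC content of 60.8%, against 49.1% in the rest of the coding sequence, and were higher in 171 of 171 genes. GC content within 50 bases of the strongest summit had a median of 59.4% in collagen genes and 41.6% over all genes. Among the 94 coding summits, 86 were richer in GC than the gene's whole coding sequence, by a median of 5.37 percentage points, and they stood a median of 5.94 points under the gene's richest stretch of 101 bases.

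The same picture held in each replicate alone. In replicate 1 the strongest summit was in the gene's own coding exons for 86 of 106 collagen genes (81.1%), against 15.2% over all genes with an entry. In replicate 2 it was 83 of 106 (78.3%), against 13.5%. Median positions were 588.5 and 612.5 bases downstream in replicates 1 and 2, and median GC content at the summits 59.4% and 58.4%.

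GC content moved with these entries, and its part in them was not tested. Collagen coding exons made up 0.685% of all coding bases (169185 of 24706470) and held 168 pooled summits, a density of 99.3 summits per 100 kb, against 16.03 in the coding exons of other genes. At a local GC content of 60% or more, 27.5% of collagen coding bases and 0.57% of other coding bases, the densities were 167.8 and 165.9 per 100 kb. Between 50% and 60% they were 118.5 and 49.3, and below 50% they were 23.9 and 11.6. Over the 5000 strongest pooled entries collagen exons held 54 summits, and the densities were 43.4 against 35.8 from 60% to 65% GC, 126.6 against 66.4 above 65%, and 46.2 against 14.01 from 55% to 60%. From 50% to 55% GC the densities were 20.33 against 4.789. The classes from 50% upward rest, in rising order of GC, on 6, 16, 14 and 18 collagen summits. In other genes they rest on 84, 75, 42 and 15. Below 50% GC collagen exons held 0 of the 5000 strongest, and other exons had 0.5651 to 1.423 summits per 100 kb. Over all pooled entries the densities were 142.5 against 161.2 from 60% to 65%, and 225.0 against 190.4 at 65% or more. The densities of collagen exons were thus near those of other coding exons at 60% GC or more over all pooled entries. They were higher between 50% and 60%, and among the 5000 strongest entries in each class from 50% upward. With no control library analysed, how far the same stretches are recovered without the tagged protein was not tested.

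**Figure D4:**
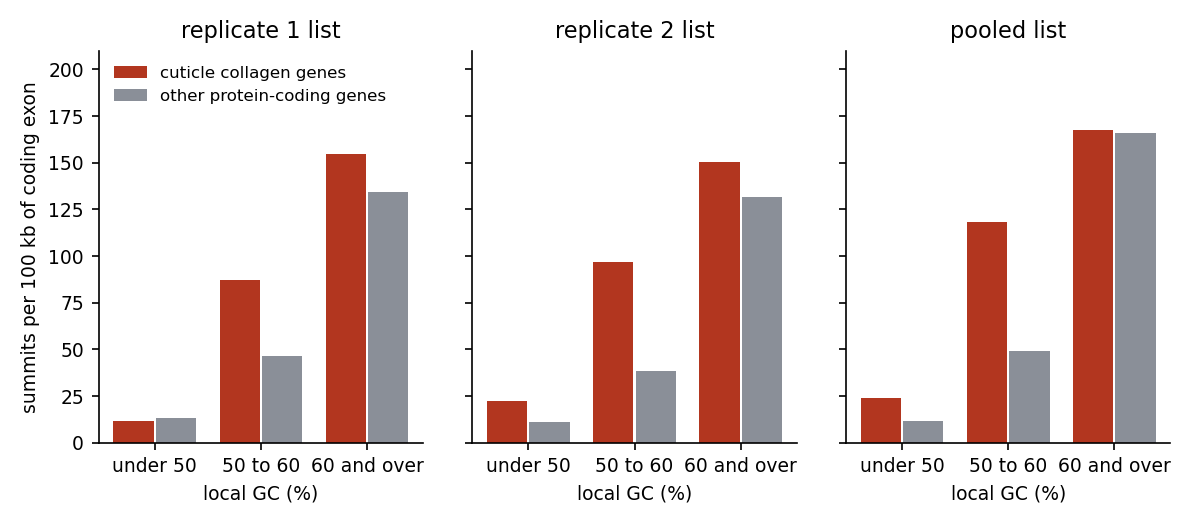
Summits per 100 kb of coding exon (y axis) in 3 classes of local GC content (x axis, % within 50 bases of each position) for cuticle collagen genes (red) and other protein-coding genes (grey), in the lists of replicate 1, replicate 2 and both pooled. Both kinds of gene rise with GC content, and in the class of 60% and over the pooled bars are level at 167.8 and 165.9.

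Each replicate gave a similar pattern, with 154.9 against 134.4 summits per 100 kb at 60% GC or more in replicate 1 and 150.6 against 131.6 in replicate 2. From 50% to 60% the densities were 87.3 against 46.3 in replicate 1 and 96.7 against 38.6 in replicate 2. Under 50% collagen exons had 11.95, against 13.54, in replicate 1 and 22.2, against 11.1, in replicate 2, so the order of the gene groups was not shared there. These collagen densities rest on 7 summits in replicate 1 and 13 in replicate 2.

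Members differed in the GC content of their richest stretch of coding sequence. The share within the 5000 strongest pooled entries was higher from 65% GC upward than below it. The share with a pooled entry of any rank did not follow GC content steadily. Of 31 collagen genes whose richest 101 bases had 70% GC or more, 12 (38.7%) were within the 5000 strongest. Of 82 with 65% to 70%, 29 (35.4%) were. Of 45 with 60% to 65% it was 9 and of 14 below 60% it was 3 (21.4%). A pooled entry of any rank was found for 67.7%, 67.1%, 57.8% and 71.4% of these classes, from the richest to the poorest. By chromosome the share within the 5000 strongest was highest on III with 7 of 13 genes (53.8%, against 22.5% of all genes on III). Next was V with 13 of 32 (40.6%, against 9.63%). It was 33.3% on X, against 16.1%, 30.2% on IV, against 14.8%, 18.8% on II, against 15.6%, and 18.2% on I, against 21.2%. Collagen genes were shorter than others, with a median of 1220 bases against 2026, and more of them had 1 annotated start (86.6% against 72.6%).

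Of the 16 members without a col symbol, 11 had a pooled entry, 9 of them with the summit in a coding exon, and 3 were within the 5000 strongest (18.8%, against 15.8% of all genes). Of the 156 col genes 101 had a pooled entry and 50 (32.1%) were within the 5000 strongest. dpy-17, which encodes a collagen that acts with SQT-3 in early cuticle, ranked 3911 with its summit in an intron (39.6% GC), at 1711 in replicate 1 and with no entry in replicate 2. dpy-13 ranked 4000, at 3048 and 8981 in the replicates, with the summit 664 bases downstream in the coding sequence. sqt-3 ranked 4773, at 2129 and 7189, on a coding stretch of 73.3% GC, its richest.

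Further from the top, sqt-2 ranked 5326, rol-6 ranked 5828 and rol-8 ranked 8028, with the rol-8 summit in an intron of 23.8% GC. The annular furrow collagens, which sit in the circumferential furrows of the cuticle, had dpy-8 at 5341, dpy-2 at 5816, dpy-3 at 7145 and dpy-9 at 7659, each with a summit in a coding exon and an entry in both replicates. The furrow collagen gene dpy-10 had an entry in replicate 2 alone (19541), and dpy-7 had none in any list. bli-1, one of the strut collagens of the adult cuticle, ranked 16503, while bli-2 had no pooled entry but ranked 8058 and 13951 in replicates 1 and 2. dpy-5 had an entry in replicate 2 alone (9872) and sqt-1 had none.

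Upstream summits, where regulatory sequence would be looked for first, were found for 25 members, and 4 of these summits lay in the coding exon of another gene. Of the 25, 16 lay in no protein-coding gene, 6 were also upstream of another gene and 11 lay in no protein-coding gene and upstream of no other. The 16 and the 11 include col-185, whose summit lay at the end of a tRNA gene. After col-71, col-185 and col-2, the strongest were those of col-44 (in col-9), col-8 (rank 2643, in an intron or untranslated part of rfl-1), col-38 (3203, shared with the ribosomal protein gene rpl-5), col-142 (4674, in col-141) and col-157 (4985, 705 bases upstream and outside protein-coding genes). In 10 of the 25 the entry was met in both replicates, where met means that each entry covered at least 50% of the other. By this rule col-71, with a pooled entry of 182 bases, was not met in replicate 2, although the summits lay at the same position. dpy-3 was the 1 member without a col symbol among them, at rank 7973 and 161 bases upstream.

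Agreement between replicates was moderate for the strongest pooled entries of collagen genes, which ran from rank 70 to 21551. Of these 112 entries, 73 (65.2%) were met in both replicates, against 52.6% over all genes. For collagen genes 89 were met in replicate 1, 91 in replicate 2 and 5 in neither. The shares of 65.2% and 52.6% cover entries of unlike strength, with median ranks of 5220 and 7563.5. Of the collagen genes within the 5000 strongest of replicate 1, 46.0% were shared with replicate 2, against 67.9% over all genes. For those of replicate 2 it was 57.5%, against 67.9%. With summits within 100 bases as the rule, 52 of 112 (46.4%) were met in both. Matched summits lay a median of 23 bases from the pooled one in replicate 1 and 18 in replicate 2. For the 84 members with an entry in both lists the log2 ratio of rank in replicate 1 to rank in replicate 2 had a median of -0.25 and ran from -2.36 to 3.71, against -0.01 over 5621 genes; a negative value means a stronger rank in replicate 1, which 47 of the 84 had. Restricted to members with 1 annotated start the median was -0.02.

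Single genes differed more. The members that stood highest in replicate 1 relative to replicate 2 were col-123 (1593 and 8175), col-9 (1428 and 7124), col-65 (2098 and 9925), col-138 (2199 and 9882) and col-172 (3262 and 14629). In the other direction were col-157 (17541 and 1337), col-163 (18957 and 2707), col-156 (17566 and 2756), col-164 (8636 and 1410) and col-48 (16997 and 3443). Several of these pairs are different entries of 1 gene: col-157 had a summit 639 bases downstream in replicate 1 and 752 bases upstream in replicate 2. The positions in replicates 1 and 2 also lay apart for col-65 (773 and -120), col-123 (543 and 916), col-138 (585 and 277) and col-156 (883 and 611). col-172 has 3 annotated starts, so its positions, 589 and 5, may count from different ones. Only col-85, col-71, col-185 and col-2 were among the 1681 strongest of both replicates, and col-2 was so through different entries. Its coding summit ranked 1278 in replicate 1 and 3466 in replicate 2, and its upstream summit 7334 and 1311.

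**Figure D5:**
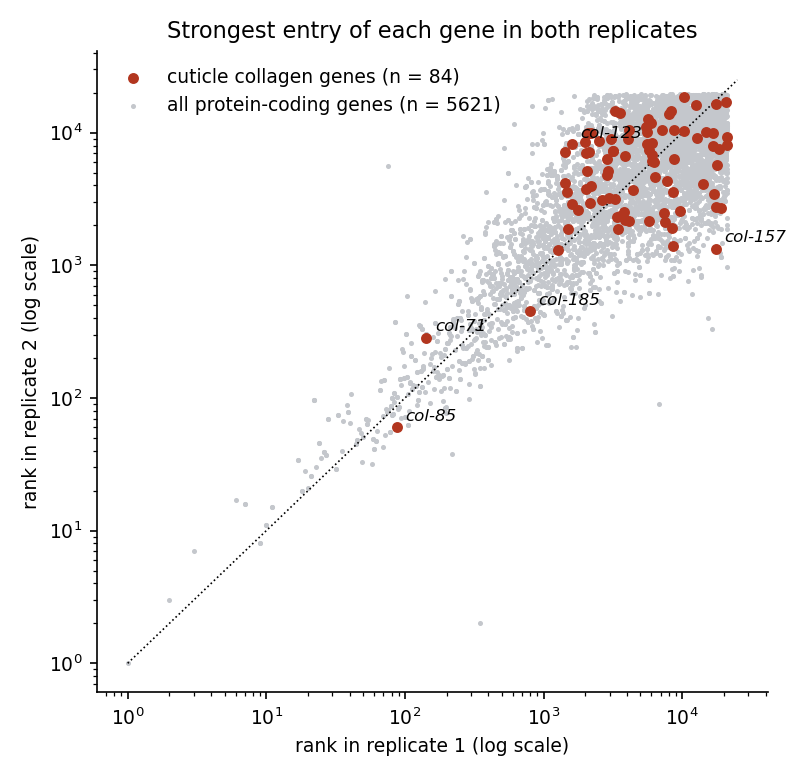
Rank of the strongest entry of each gene in replicate 1 (x axis) and replicate 2 (y axis), both on log scales with 1 the strongest, for 84 cuticle collagen genes (red) and all 5621 protein-coding genes with an entry in both lists (grey); the dotted line marks equal ranks. col-85, col-71 and col-185 lie near the line, and the other collagen genes lie in the broad cloud past rank 1000.

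Some members share a summit and are not independent of each other. Pairs on 1 summit were col-9 and col-44 (rank 2302), col-46 and col-47 (4377), col-141 and col-142 (4674), col-39 and col-79 (7352) and col-159 and col-160 (11457 and 21068). Among the 112 members, 65 had 1 pooled entry, 36 had 2 and 11 had 3, with col-185, col-2 and col-44 the strongest of these. Collagen genes resemble each other in sequence, and reads could be shared between copies. Within the 112 strongest entries, 91 consisted wholly of stretches of 50 bases that occur once in the genome, and 7 had fewer than 90% such stretches, the lowest being col-166 with 47.2% and the pair col-159 and col-160 with 65.8%. Of the members named above with an IDR peak, col-85 had 80.9%. Another gene overlapped 59 of 172 members, and 35 of the 94 with a coding summit, so a summit in these can belong to either gene. The share of all genes with such an overlap was not counted.

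Short motifs were counted at the summits, and how far the composition of the repeat accounts for the counts was not tested. The homeodomain core TAATTA occurred within 50 bases of the strongest summit in 1 of 112 collagen genes (0.893%), against 8.91% over all genes, and TAATTG in 2 (1.79%), against 8.71%; both were searched on both strands. GAGAGA was found in 6 (5.36%), against 12% over all genes, although in 14 at the summits of replicate 1 alone and in 16 within 100 bases, the GATA core GATAAG in 4 (3.57%), against 2.86%, and CACCTG in 16 (14.3%), against 2.88%. Most of the CACCTG matches, 14 of 16, were in coding summits, where the letters can be spelled by proline and glycine codons. GGNCC, which reads the same on both strands and was chosen after the data had been seen, was found in 93 (83.0%), against 11.9%, with a median of 3 per window of 101 bases in coding summits. These letters are a description of the windows and say nothing of which protein bound.

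No pooled entry near a start was found for 60 members, while 65.1% of members had one, against 42.1% of all genes. Of these 20 had an entry in a replicate list alone and 40 in no list, among them col-3, col-7, col-12, col-13 and col-33, the 5 with the lowest numbers. Even among the 40, 15 had a pooled summit in their own coding exons more than 1000 bases from a start, col-33 being one. The shares of all genes that match the 20, the 40 and the 15 were not counted, so these cannot be called many or few. The check for stretches of 50 bases that occur once covered only the 112 strongest entries, so it does not reach these 60 members. Some of the 60 resemble each other: col-3 and col-117 each have 897 coding bases at 60.2% GC. Whether reads could be placed on such genes was not tested. The richest stretch of coding sequence had a median GC content of 70.3% in the 4 genes with an IDR peak, 67.3% in the 49 directly below, 66.3% in the 59 past rank 5000, 67.8% in the 20 with a replicate entry alone and 65.8% in the 40 with none, so the classes overlapped widely.

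Other genes of cuticle formation were looked at in 5 lists, drawn up with results of these data known. Their counts stand beside 42.1% of all genes with a pooled entry and 6.82% with an IDR peak, and beside strongest summits that were upstream in 59.6% and in the gene's own coding exon in 13.1% of all genes with an entry. Of 9 collagens outside the naming rule none had an IDR peak and 6 had a pooled entry. The strongest summit was in a coding exon for 2 of them, dpy-4 (rank 3089, 603 bases downstream) and lon-3 (7190, 652 bases downstream). It was upstream for 4: bli-6 (5808), dpy-14 (12171), let-2 (14753) and emb-9 (19135), of which let-2 and emb-9 encode basement membrane collagens. Counted without any window, all 9 had a pooled summit in their own coding exons, against 16.2% of all genes. let-2 had 7 such summits. Of 19 enzymes and factors for processing and crosslinking of collagen, 11 had a pooled entry, 8 of them upstream and none in a coding exon, and 2 had an IDR peak: pdi-2, a protein disulfide isomerase and subunit of prolyl hydroxylase, at rank 872 and position -244, and bli-4, a proprotein convertase that trims collagens, at rank 1135 and position -202, both upstream of the start. Next was sqv-3, a glycosyltransferase gene, at 2536.

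Of the secretory pathway genes, 5 of 8 matched had a pooled entry, all 5 with the strongest summit upstream. An IDR peak was found for 1, the vesicle coat GTPase gene sar-1 at rank 1448. Of 20 other genes of the cuticle and apical matrix, 8 had a pooled entry and none an IDR peak, led by mlt-9 at 3401, cut-2 at 3572 and mlt-10 at 4736. Among the strongest summits of these 8, that of cut-2 was the 1 in a coding exon, at 66.3% GC. Of 25 regulators of epidermis and moulting, 17 had a pooled entry, and lin-28 (1161) and lin-14 (1428), heterochronic genes that set the timing of larval stages, had IDR peaks. The strongest summits of lin-28 and lin-14 lay at positions 2 and -150 relative to a start.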

How the data were processed

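Peak lists from ChIP-seq of 2 biological replicates (1 group) were used. Per the labels, chromatin of CEH-14-GFP late embryos was precipitated with anti-GFP. The authors deposited narrowPeak lists with a signal value for each entry, and these signal values served only to rank entries within a list. For the aligner, the peak caller and the IDR threshold, names and settings were not given in the sources used here. Lists in ce10 were not used, and coordinates were not converted. Summits (1-based) were set against transcript starts, coding exons and small RNA genes of Ensembl release 115, whose WBcel235 assembly is ce11; sequence came from the RefSeq copy. Scripts ran in Python 3.11.15 with numpy 2.4.6 and pandas 2.3.3. The strongest entry within 1000 bases of any start represents a gene, and its rank puts the gene in 1 class. GC content is over 101 bases centred on a position. Assignment to starts was tested on planted summits by distance alone, so the sign of a position, upstream or downstream, was not checked. The search for tracts was tested on 1 made sequence. The replicates are biological per the labels; no p-value was computed.

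Members and lists were chosen with earlier results of these data known. The text names each member with an IDR entry, the 15 strongest below, the 16 without a col symbol, the 3 on each side of the IDR threshold, the 5 with the largest rank ratio each way, sets that share a summit, 3 with the most entries, the leading genes of each list, and 5 members with no entry. Other genes named for position, uniqueness or exceptions were chosen after their values were seen. sec-13 and tango-1, of the secretory list, were not matched.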

Additional observations from a re-analysis of the deposited data

How the results depend on the processing

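Of 53 alternative settings, 37 kept their count within 1.5 times of the reported one or their median within a spread, and 16 did not. For the distance to the start, the spread was the standard deviation of the medians of replicates 1 and 2 (20.5 bases), which are also settings judged here. For the rank ratio it was the standard deviation over members. That is wide beside a median of -0.25, so its 3 settings, all counted as kept, could hardly have failed. Of the 41 that have a share over all genes beside them, the order of collagen genes against all genes turned in 7. With a window of 500 bases it turned for pooled entries (27.9% of collagen genes, against 30.5% of all genes) and for ranks 1682 to 5000 (4.07%, against 6.53%). For the strongest 1681 entries it turned in the list of replicate 1 alone (6.98%, against 6.63%). That small excess of replicate 1 itself turned with a window of 500 bases (1.16%, against 4.97%), with 2000 bases (8.14%, against 9.31%) and without entries near small RNA genes (5.81%, against 6.17%), and the low share in replicate 2 turned with the 5000 strongest entries (23.3%, against 15.3%). With a window of 500 bases the collagen genes numbered 2 with an IDR peak, 48 with a pooled entry, 7 ranked 1682 to 5000, and 2 and 3 among the strongest entries of replicates 1 and 2; the distance of collagen summits from starts sets these. Without entries near tRNA, snoRNA or snRNA genes 2 had an IDR peak. Taking 1 replicate's list in place of both gave 6 to 12 among the strongest 1681 entries, 106 in each whole list, 34 to 38 between ranks 1682 and 5000, and 7 to 14 with GAGAGA at the summit. The larger values came from replicate 1 for the strongest entries and for GAGAGA. With 5000 strongest entries in place of 1681 the counts were 50 and 40 in replicates 1 and 2. A lower rank limit of 10000 gave 84 members below the IDR peaks and one of 3000 gave 24. GAGAGA within 100 bases was found in 16. The median distance from summit to start, 650 bases, was 627 over all entries of a member, 727.5 with a window of 2000 bases, and 605.5 to 634.5 with 1 replicate. No paired analysis was possible because there is 1 group. Depth is unknown, and no control library was analysed, so weak entries and background cannot be told apart.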
